A study of Mus musculus with 6 samples.

Results

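The heat shock chaperones and co-chaperones were examined in whole mouse brain after deletion in neurons of Elavl1, the gene of the RNA-binding protein HuR. The set was chosen by name and comprises 10 genes: Hspa1a, Hspa1b and Hspa8 of the HSP70 family, the HSP110 gene Hsph1, the J-domain gene Dnajb1, the BAG-domain gene Bag3, the small heat shock protein genes Hspb1 and Hspb8, and the cytosolic HSP90 genes Hsp90aa1 and Hsp90ab1. A probeset that names 1 gene symbol alone was found for 9 of the 10, among 22180 genes with such a probeset, and Hsp90ab1 was not analysed here. Where a gene had several such probesets, the brightest was used. All 9 genes lay above the limit set for dim genes and were tested together with the rest of the 16635 genes that did.

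RNA came from total brain tissue of mice aged 91 days, with 3 samples per group and 1 Affymetrix Mouse Gene 2.0 ST array per sample. Every animal carried Thy1Cre-ERT2-EYFP, a transgene with a Cre recombinase that tamoxifen activates and a yellow fluorescent reporter. It uses the Thy1 promoter, which is active in neurons. Every animal also received tamoxifen, at 10 and 11 weeks of age. Control mice had the genotype HuRf/+, with 1 floxed allele, and knockout mice HuRf/f, with 2. The controls could therefore lose 1 copy of Elavl1 in the same neurons, other brain cells of both groups keep the gene, and no group without Cre or without tamoxifen was part of this comparison. In whole tissue, fewer cells of a type and less RNA per cell cannot be told apart. The labels describe separate samples without tying each to a named animal. A p-value here therefore reflects only how these samples vary, which may in part be technical.

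Heat shock proteins hold unfolded polypeptides in solution and fold them again with the energy of ATP. HSP70 grips exposed hydrophobic stretches in a cycle that J-domain proteins start and nucleotide exchange factors such as HSP110 and BAG proteins end, small heat shock proteins keep misfolded clients from aggregating, and HSP90 completes the maturation of kinases and steroid receptors. The constitutive members serve neurons at all times. The inducible ones are switched on by heat shock factor 1, HSF1, which binds inverted repeats of GAA and TTC letters, the heat shock element, in their promoters. Neurons raise the inducible HSP70 less readily than glia do.

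The pair Hspa1a and Hspa1b lies side by side on mouse chromosome 17 and is shown first because the largest differences between arrays belonged to it. The 250 bases before the start of each gene, from RefSeq's promoters on GRCm38.p6, were identical at 247 positions, or 98.8%. Counted from 1 at the left end, Hspa1a and Hspa1b differ by C44T, T47C and T249G. Capitals mark the 8 letters GAANNTTC or TTCNNGAA, the pairings of 2 heat shock element units, searched on both strands; either one is its own reverse complement.

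Hspa1a, chr17:34972157-34972406, minus strand: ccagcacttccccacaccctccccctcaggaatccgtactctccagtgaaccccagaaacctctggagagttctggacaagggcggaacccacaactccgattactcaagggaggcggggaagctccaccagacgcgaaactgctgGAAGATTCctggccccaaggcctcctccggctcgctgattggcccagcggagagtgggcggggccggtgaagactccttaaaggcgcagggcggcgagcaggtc
Hspa1b, chr17:34959239-34959488, minus strand: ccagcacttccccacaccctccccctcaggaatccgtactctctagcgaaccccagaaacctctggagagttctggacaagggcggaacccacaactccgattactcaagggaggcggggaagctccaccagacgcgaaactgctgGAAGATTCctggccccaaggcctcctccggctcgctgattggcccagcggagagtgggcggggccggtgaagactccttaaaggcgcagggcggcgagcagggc
Hspb1, chr5:135887669-135887918, plus strand: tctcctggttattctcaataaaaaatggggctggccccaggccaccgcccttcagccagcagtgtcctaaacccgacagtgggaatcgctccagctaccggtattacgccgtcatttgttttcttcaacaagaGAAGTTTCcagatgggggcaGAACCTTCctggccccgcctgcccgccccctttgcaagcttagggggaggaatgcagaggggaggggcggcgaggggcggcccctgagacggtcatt
Hsph1, chr5:149636337-149636586, minus strand: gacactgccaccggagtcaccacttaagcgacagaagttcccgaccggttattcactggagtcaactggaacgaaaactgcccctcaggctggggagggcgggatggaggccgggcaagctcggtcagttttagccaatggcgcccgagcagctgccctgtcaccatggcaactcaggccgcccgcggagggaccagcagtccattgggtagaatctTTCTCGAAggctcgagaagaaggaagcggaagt

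Promoters of 7 of the 10 genes were in the table, and 4 of these held a match. Hspa1a and Hspa1b have the same GAAGATTC that begins 104 bases before the start. Hspb1 has 2 matches, which begin 117 and 97 bases before its start, and Hsph1 has TTCTCGAA 33 bases before the start shown. No match stood in these windows for Bag3, Dnajb1 and Hspb8. Over all 32851 promoters in the table, 6.69% held GAANNTTC and 7.17% held TTCNNGAA in the same 250 bases, and 0.466% held GAANNTTC extended by NNGAA, read on both strands, which was in none of the 7 genes' windows. These are matches of letters and not measured binding.

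The targeted gene was read first. Elavl1 had intensities of 309.7, 242 and 376 in control brain and 295, 289 and 315 in knockout brain (replicates 1 to 3). The groups overlapped, and knockout minus control was -0.05 on the log2 scale (standard error 0.15, 95% interval from -0.39 to 0.29). Where the single probeset lies relative to the floxed part is not known here, so this value does not check the labels. The 2 arrays numbered 3, 1 in each group, stood apart from the other 4. Their intensity of Xist was 208 and 212 against 4.97 to 5.99 on the others, and Uty and Kdm5d on the Y chromosome were low on those 2 arrays alone. That is the pattern of female tissue, with the pattern of male tissue on the other 4 arrays. The labels give no sex per sample, and sex cannot be told apart here from anything else particular to number 3. The 7 lists of cell type markers that could be read had summed intensities that overlapped between the groups, with no marker listed at 0. Neuron markers summed to between 12159 and 17052 in control and between 12690 and 16753 in knockout brain. The microglia list summed to between 638 and 856 in control and between 604 and 871 in knockout brain. Single-symbol probesets for the red blood cell genes were not found.

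The inducible HSP70 genes were brighter on 2 of the 3 knockout arrays than on any control array, and within or below the control range on the third. Hspa1b, which encodes the stress-inducible HSP70, had intensities of 46.0, 44.4 and 56.7 in control brain and 88.6, 87.9 and 48.9 in knockout brain (probeset 17344126). Knockout 1 and knockout 2 lay far above all controls and knockout 3 lay among them. On the quantile-normalised log2(intensity + 1) scale, used for every level and difference below, Hspa1b had a level of 5.64 ± 0.173 in control (SD, n = 3) and 6.19 ± 0.502 in knockout brain (SD, n = 3). Its log2 fold change was 0.55 with a standard error of 0.24, a 1.47-fold difference with a 95% interval from 0.991-fold to 2.17-fold. This did not pass in limma (unadjusted p = 0.0543, Benjamini-Hochberg adjusted p = 1 over 16635 genes), although 99.9% of all genes tested had a log2 fold change no larger.

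Hspa1a, whose protein is almost the same as that of Hspa1b, was likewise brightest in knockout 1 and knockout 2, while the other 4 arrays stood in a different order. Its intensities were 78.0, 69.3 and 75.2 in control brain and 112, 105 and 51.0 in knockout brain (probeset 17344132). The 3 controls were close together, knockout 1 and knockout 2 lay above them, and knockout 3 was the dimmest of the 6 arrays. Its log2 level was 6.24 ± 0.0449 in control (SD, n = 3) and 6.41 ± 0.639 in knockout brain (SD, n = 3), and the log2 fold change of 0.16 had a 95% interval from -0.50 to 0.83 (limma adjusted p = 1). Its residual SD was larger than that of 95.8% of all genes tested, and that of Hspa1b was larger than that of 91.7%. How far the probesets of these near-identical copies share signal is uncertain. A further probeset that names both genes was dim on every array, at 5.49 to 6.80, and was not used in the fit.

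Both values depended on single knockout arrays. Hspa1b was at 0.40 without knockout 1, 0.41 without knockout 2 and 0.84 without knockout 3. Hspa1a was at -0.042 without knockout 1, 0.0055 without knockout 2 and 0.53 without knockout 3, so its sign turned in the first of these. Without both arrays numbered 3, which leaves 2 arrays a group, Hspa1b was at 0.93 with a standard error of 0.10, or 1.91-fold, and had the smallest p of all 16635 genes (limma unadjusted p = 0.000139). Its adjusted p was 0.929, so it was not called there either. In that fit Hspa1a was at 0.53 with a standard error of 0.11 (limma unadjusted p = 0.00342, adjusted p = 0.929). Both genes were among the 3.02% of genes that were higher in knockout at an unadjusted p under 0.05 in that fit, and no other gene of the set was. The fit without both arrays numbered 3 was planned with the separation of those arrays already known, and whether the knockout difference depends on the number was not tested.

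**Figure D1:**
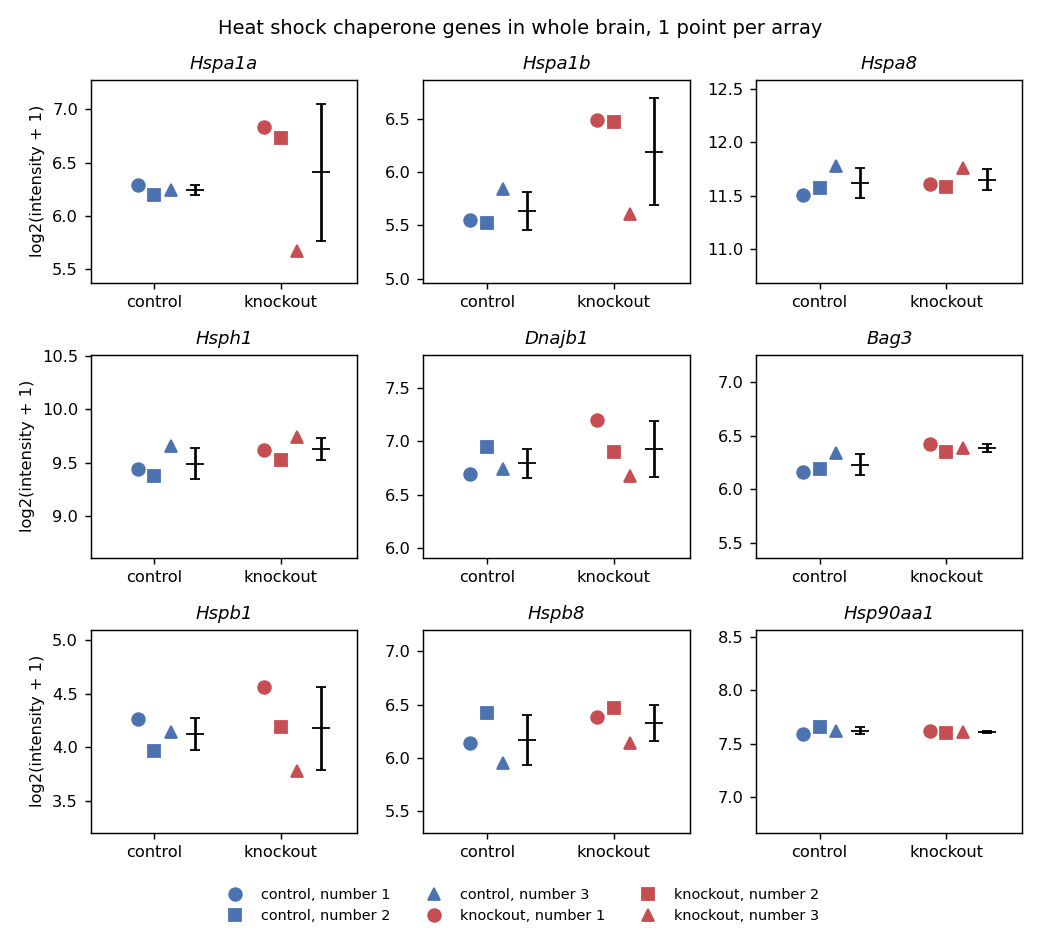
Levels of the 9 measured genes as quantile-normalised log2(intensity + 1), with 1 point per array, marker shape for the replicate number, and the mean and SD of each group (n = 3) in black, on panels of equal height. Hspa1a and Hspa1b are high in knockout 1 and knockout 2 and not in knockout 3, while Hsp90aa1 is level across all 6 arrays.

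The constitutive HSP70 gene did not share that pattern. Hspa8, which encodes the HSC70 that handles folding and clathrin uncoating in unstressed neurons, had intensities of 3048, 3144 and 3383 in control brain and 3233, 3188 and 3311 in knockout brain. The groups overlapped, and the highest array of each group was the one numbered 3. Knockout exceeded control by 0.03 with a standard error of 0.12, and the 95% interval ran from 0.845-fold to 1.24-fold. The sign turned when all 4 probesets of Hspa8 were averaged (-0.023). The 3 unused probesets had differences of -0.06, -0.03 and -0.04. Another probeset, which names Hspa8 together with Snord14e, a small nucleolar RNA encoded within it, was at 1001, 597 and 262 in control and 388, 341 and 221 in knockout brain. Those values differed by -0.82 between the log2 means, overlapped between the groups and were widely spread within control.

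Hsph1, the HSP110 that exchanges nucleotide on HSP70, had intensities of 697, 649 and 808 in control brain and 787, 739 and 851 in knockout brain. Each knockout array lay above the control of the same number, by 0.18, 0.15 and 0.08 on the log2 scale, yet the groups overlapped because control 3 was bright. Its log2 fold change was 0.14 with a standard error of 0.12 (limma adjusted p = 1). It was 0.079 without knockout 3, 0.08 without control 2 and 0.22 without control 3.

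Among the co-chaperones, Dnajb1, the J-domain protein that delivers clients to HSP70 and is itself a heat shock gene, had intensities of 104, 115 and 108 in control brain and 145, 119.5 and 105 in knockout brain. Knockout 1 alone lay clearly above the controls. Its log2 fold change was 0.13 with a standard error of 0.16, and it was -0.005 without knockout 1.

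Bag3 couples HSP70 to small heat shock proteins and to autophagy of aggregates. It had intensities of 71.2, 68.6 and 80.8 in control brain and 84.3, 81.5 and 85.6 in knockout brain. Every knockout array was brighter than every control array, by the narrow margin between knockout 2 and control 3, and Bag3 was the only measured gene of the set whose groups did not overlap. Over all genes tested, 3.14% were separated in that direction and 2.55% in the other, where the set had 0 of 9. Its level was 6.23 ± 0.096 in control (SD, n = 3) and 6.39 ± 0.0351 in knockout brain (SD, n = 3), and the log2 fold change was 0.16 with a standard error of 0.10 and a 95% interval from -0.08 to 0.40 (limma unadjusted p = 0.171, adjusted p = 1). Bag3 kept a positive value under each of the 16 alternatives, from 0.12 to 0.23.

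Of the small heat shock proteins, Hspb8, the partner of BAG3 in the removal of misfolded protein, had intensities of 70.2, 80.2 and 61.3 in control brain and 82.1, 87.8 and 71.3 in knockout brain. The knockout array was the higher one for each number, by 0.24, 0.05 and 0.19 on the log2 scale, and the groups overlapped. Its log2 fold change was 0.16 with a standard error of 0.15 (limma adjusted p = 1). It was 0.05 without control 3, 0.091 without knockout 2, 0.25 without knockout 3 and 0.29 without control 2.

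Hspb1, which encodes HSP25, a small chaperone that binds actin and intermediate filaments, was dim, with intensities of 17.8, 15.5 and 16.6 in control brain and 22.5, 17.1 and 12.4 in knockout brain. Knockout 1 was the brightest array and knockout 3 the dimmest, as for Hspa1a. The log2 fold change of 0.05 had a standard error of 0.20. The mean of its 2 probesets turned the sign (-0.063), since the second probeset had a difference of -0.18.

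The cytosolic HSP90 that stress induces, Hsp90aa1, was the steadiest gene of the set. Its intensities were 194, 190.0 and 199.6 in control brain and 196, 194 and 201 in knockout brain. The log2 fold change was -0.02 with a standard error of 0.095 and a 95% interval from -0.24 to 0.20, and it turned positive without normalisation (0.016) and after median centring of the arrays (0.052). Only 0.258% of all genes tested had a residual SD as small.

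Counted together, 0 of the 9 genes passed an adjusted p of 0.05 in limma, and the same held for 0% of the 16635 genes tested. At an unadjusted p under 0.05 there were 0 of the 9, beside 1.7% of all genes, of which 0.932% were higher and 0.763% lower in knockout. That count was 1 or 2 in 7 of the 16 alternatives, in which between 242 and 851 of the 16635 genes were under 0.05. It was 2 only where knockout 3 was left out, alone (464 genes) or with control 3 (851 genes). Hspa1b had an unadjusted p of 0.0467 without normalisation, 0.0337 after median centring, 0.0452 without control 3, 0.00294 with array weights (log2 fold change 0.79) and 0.000606 without knockout 3, all in limma. The log2 fold change was above 0 in 8 of 9, all but Hsp90aa1, beside 54.8% of all genes, and the median was 0.14 beside 0.013 over all genes; without normalisation or after median centring all 9 lay above 0, beside 56.9% and 68.6% of genes. The middle 90% of all genes ran from -0.20 to 0.22, and Hspa1b alone lay outside it. Without knockout 1 the count above 0 was 5 of 9, close to the 55.2% of all genes there. With the mean over probesets it was 6 of 9, beside 54.9% of all genes. With the replicate number as a block, or with the arrays numbered 3 as a block, an alternative added after seeing the data, 0 of 9 were called as well, and 0% of genes; Hspa1b had unadjusted p-values of 0.0604 and 0.0435 there, where 4.85% and 4.62% of all genes were under 0.05, and 2.81% and 2.69% of all genes were under it and higher in knockout.

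The differences were unlike between replicate numbers. Knockout 1 was above control 1 in 9 of the 9 genes, with a median of 0.26, beside 52.1% of all genes and a median of 0.01. In number 2 it was 7 of 9 with a median of 0.15, beside 53.3% of genes, and in number 3 it was 3 of 9 with a median of -0.02, beside 51.4%. Hspa1b differed by 0.94, 0.94 and -0.23 in the numbers 1, 2 and 3, and Hspa1a by 0.53, 0.53 and -0.57. In number 3 the value of Hspa1a was lower than that of nearly all genes, with 0.403% at or below it, and Hspb1, at -0.37, had 2.61% at or below it. The match of arrays 1 and 2 between the groups is weak, since control 1 resembled knockout 2 (r = 0.401 of their deviations over genes) more than knockout 1 (r = 0.314). Control 2 likewise resembled knockout 1 (r = 0.373) slightly more than knockout 2 (r = 0.367). The differences given for numbers 1 and 2 therefore rest on the sample numbers alone. Without the arrays numbered 3, 5 of 9 genes had groups that did not overlap, all higher in knockout (Hspa1a, Hspa1b, Hspa8, Hsph1 and Bag3), where 19.7% of all genes did.

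**Figure D2:**
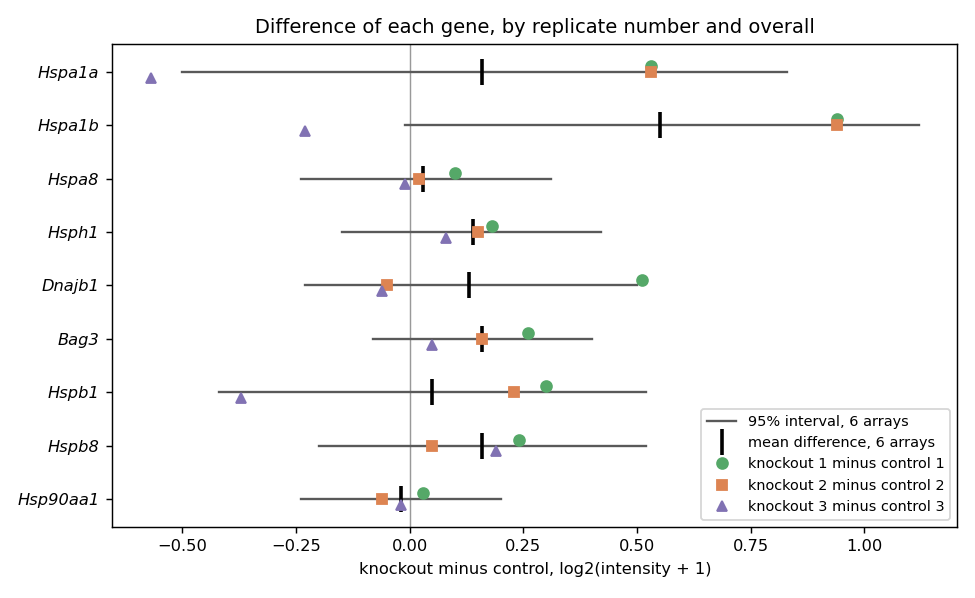
Knockout minus control on the log2(intensity + 1) scale for each gene, as 1 marker per replicate number, with the mean difference over the 6 arrays (black bar) and its 95% interval (line). Numbers 1 and 2 coincide at 0.94 for Hspa1b and 0.53 for Hspa1a, number 3 lies at -0.23 and -0.57, and all intervals include 0.

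Across the 6 arrays the genes fell into patterns that did not follow the families. Hspa1a correlated at Pearson's r = 0.83 with Hspa1b, at 0.87 with Hspb1 and at 0.75 with Dnajb1, and these 4 genes had r of at least 0.65 with each other. Hspa8 correlated at 0.86 with Hsph1 and at -0.52 with Hspa1a, and Bag3 at 0.85 with Hsph1 and 0.66 with Hspa1b. For comparison, the middle 50% of all genes tested had r from -0.46 to 0.45 with Hspa1a and from -0.56 to 0.64 with Hspa8. These are descriptions over 6 arrays that include both groups and both arrays numbered 3, so the separation of those arrays enters each value.

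**Figure D3:**
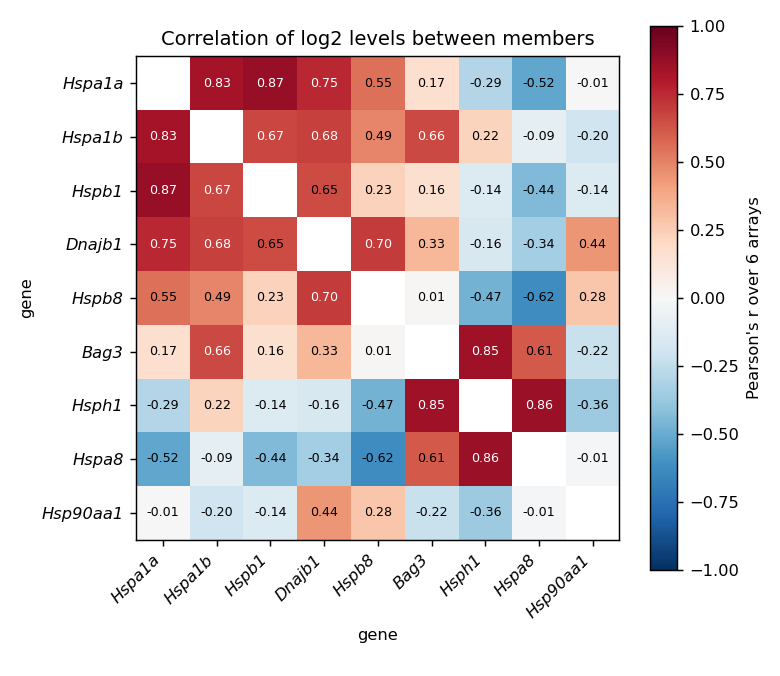
Pearson's r between the log2 levels of each pair of genes over the 6 arrays, on a colour scale from -1 to 1. Hspa1a, Hspa1b, Hspb1 and Dnajb1 form a block of r from 0.65 to 0.87, Hsph1 correlates with Bag3 at 0.85 and with Hspa8 at 0.86, and Hsp90aa1 has values between -0.36 and 0.44.

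The 5 genes outside the set whose levels were most like those of Hspa1b over the 6 arrays were Mfhas1 (r = 0.9891), Cpa4 (0.9872), Fkbp4 (0.9866), Nudt1 (0.9852) and Kif24 (0.9847). Of these, Fkbp4 encodes FKBP52, an HSP90 co-chaperone of steroid receptors. Its intensities were 303, 280.4 and 321 in control brain and 337, 344 and 315 in knockout brain, so that knockout 1 and knockout 2 lay above every control and knockout 3 among them, with a log2 fold change of 0.12 and a standard error of 0.10. Fkbp4 was picked by its likeness to Hspa1b over these arrays, so this pattern follows from the choice. In all, 107 genes, or 0.644%, had r above 0.9 with Hspa1b. With Hspa8 it was 1531 genes, or 9.21%, led by Ncdn (0.9996), Syn2 (0.9995), Ptk2b (0.9994), Cry2 (0.9982) and Neurod2 (0.9969). All 5 of these were highest on the arrays numbered 3, as Hspa8 was, which likewise follows from how they were picked.

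The wider chaperone network was read from lists of other genes, which overlap in part. Of the heat shock factor list, Hsf1 was not analysed here, and 0 of 4 tested genes had an unadjusted p under 0.05. All 4 differences lay above 0, beside 54.8% of all genes, with a median of 0.09, and the groups of each gene overlapped. Hsf2, a factor that can pair with HSF1, was at 0.12 with a standard error of 0.18, and Hsbp1, which binds the HSF1 trimer, at 0.07. None of 13 other heat-inducible chaperone genes had an unadjusted p under 0.05, and 9 lay above 0 with a median of 0.03. The collagen chaperone Serpinh1 was at 0.31 with a standard error of 0.21 and differed by 0.33, 0.46 and 0.13 in the numbers 1, 2 and 3; its unadjusted p in limma was 0.19, and 0.0202 with the replicate block (adjusted p = 0.984). The HSP90 co-chaperone Chordc1 was at 0.18. Among 11 other HSP70 family genes 7 lay above 0, with a median of 0.03. In the list of HSP90 co-chaperones and other HSP90 genes, 10 of 16 lay above 0 with a median of 0.02, and the myosin chaperone Unc45a was at 0.28 with a standard error of 0.14.

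J-domain genes were evenly split, with 22 of 38 above 0 and a median of 0.03. In the same list Dnajc9, a histone chaperone, was at 0.21 and Dnajc10, a disulphide reductase of the endoplasmic reticulum, at -0.18, both without overlap between the groups. Dnajc7, a co-chaperone of HSP70 and HSP90 named here after its values were seen, was at -0.11 and also lower without overlap. In all, 1 of the 38 genes was higher and 2 were lower without overlap, beside 3.14% and 2.55% of all genes. Other small heat shock protein genes had 2 of 7 above 0 and a median of -0.06, which was 0.035 without control 2, with Hspb6 at -0.24. BAG proteins and exchange factors had 3 of 10 above 0 and a median of -0.04, which was 0.029 after median centring of the arrays. By smallest p this list was led by Grpel2 at -0.09, Bag5 at -0.07 and Bag1 at 0.10. The TRiC and prefoldin subunits had 9 of 14 above 0 and a median of 0.02, with Cct6b, a dim testis-type subunit, at 0.22. Mitochondrial chaperones and proteases had 8 of 11 above 0 and partners of BAG3 in selective autophagy 5 of 7, both with a median of 0.02. Leaving out 1 array turned the sign of 6 of the small positive medians, to as low as -0.0025 for the heat-inducible list, -0.034 for the HSP70 family, -0.0057 for J-domain genes, -0.049 for TRiC and prefoldin, -0.021 for the mitochondrial list and -0.012 for the partners of BAG3. In limma 0 genes of these lists were called, and the replicate block called 0 as well.

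Chaperones of the endoplasmic reticulum had the highest median of the other chaperone lists, 0.14, with 14 of 14 tested genes above 0, beside 54.8% of all genes. That count depends on which genes were listed. Dnajc10, the reductase of the same compartment given above with the J-domain genes, was not in this list and lay at -0.18. At an unadjusted p under 0.05, 2 of these genes were higher, beside 0.932% of all genes. In limma Sdf2l1 had an unadjusted p of 0.0443 and Herpud1 of 0.0468, both with an adjusted p of 1. With the replicate block these were 0.0245 and 0.0438 (adjusted p = 0.984 for both). Summed over the list, intensities as deposited ran from 7509 to 7989 in control and from 8313 to 8385 in knockout brain and did not overlap. Such sums weigh the brightest genes most, and how often sums of other genes separate in this way was not examined. The sums of the heat shock factor list did not overlap either, from 1593 to 1727 in control and from 1737 to 1765 in knockout brain. Most of those sums was Hsbp1 alone, at 1541, 1542 and 1437 in control and 1546, 1575 and 1572 in knockout brain. Its groups overlapped after normalisation, so the sums say little about the factors themselves. Gene by gene, 2 of the 14 were higher without overlap and 0 lower, beside 3.14% and 2.55% of all genes. Sdf2l1, a partner of the luminal HSP70, had intensities of 72.8, 74.3 and 75.2 in control and 106, 108 and 80.4 in knockout brain. All knockout arrays were brighter as deposited, knockout 3 by little, and after normalisation knockout 3 lay at 6.30 beside 6.31 in control 2. Its log2 fold change was 0.35 with a standard error of 0.15. The luminal HSP70 itself, Hspa5, was at 315, 305 and 285 in control and 402, 381 and 308 in knockout brain, with a log2 fold change of 0.24 and a standard error of 0.14. Herpud1, which works in the degradation of endoplasmic reticulum proteins, was at 0.33 and the secreted stress protein Manf at 0.22. The list median was 0.11, 0.12 and 0.09 in the numbers 1, 2 and 3, whereas the heat shock set had 0.26, 0.15 and -0.02. Whether those patterns differ was not tested.

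**Figure D4:**
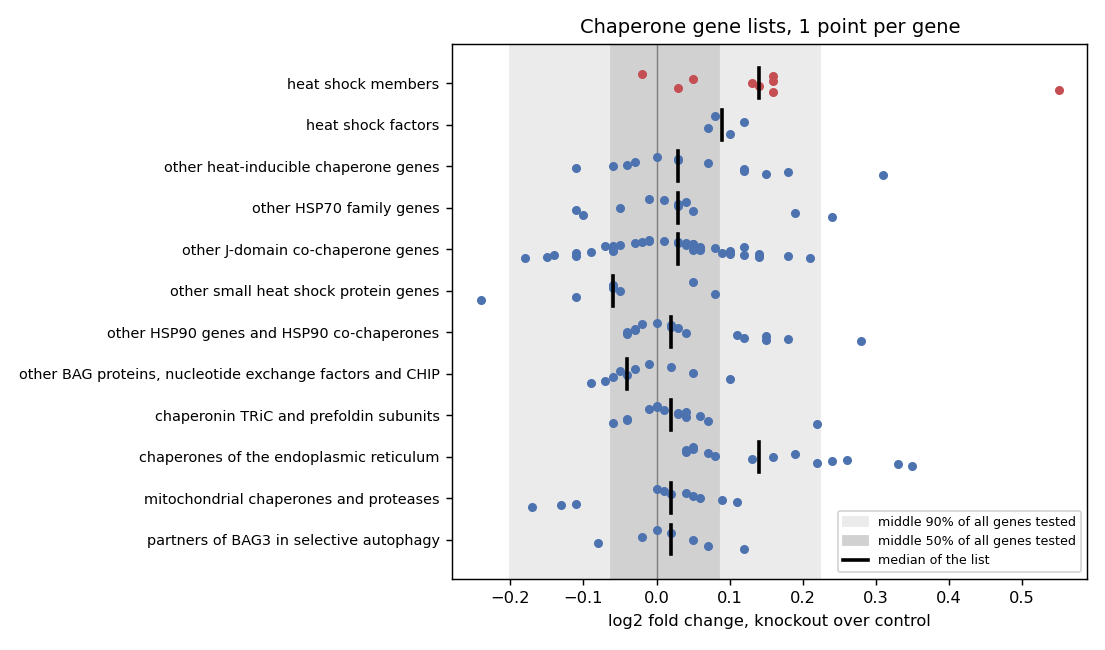
Log2 fold change of knockout over control for each tested gene of the heat shock set (red) and of the other chaperone lists (blue), with list medians as black bars and the middle 50% and 90% of all 16635 genes in grey. Most lists centre near 0, the heat shock set and the endoplasmic reticulum list have medians of 0.14, and Hspa1b stands farthest right at 0.55.

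Other lists also differed between the numbers and are given for that reason. Glucocorticoid response genes, some of which HSP90-bound receptors control, had 13 of 14 above 0 and a median of 0.16, beside 8 of 9 and 0.14 in the heat shock set. Their list medians were 0.21, 0.42 and -0.14 in the numbers 1, 2 and 3, with 14, 13 and 2 of 14 genes above 0, and summed intensities from 3872 to 3954 in control and from 3644 to 4973 in knockout brain. Immediate early genes, which neuronal activity induces, had medians of 0.13, 0.03 and -0.40, and Junb was at -0.30 overall without overlap between the groups. Of the oligodendrocyte markers 1 of 7 lay above 0, with a median of -0.06, and 3 were lower without overlap (Opalin, Cldn11 and Mog), beside 2.55% of all genes. The myelin gene Opalin was at -0.58 with a standard error of 0.18 (limma unadjusted p = 0.0132, adjusted p = 1). The list had medians of -0.32, 0.10 and -0.10 and summed to 3191 to 3861 in control and 3263 to 3431 in knockout brain. Endothelial and mural cell markers summed to 324 to 660 and 282 to 760, meningeal fibroblast markers to 299 to 640 and 345 to 572, and choroid plexus markers to 5250 to 5936 and 5333 to 6973. Astrocyte markers summed to 6667 to 7151 in control and 6769 to 7655 in knockout brain. The part of these lists in the values of Hspa1a and Hspa1b was not tested.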

How the data were processed

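The authors deposited linear intensity values of 41340 probesets for each of 6 arrays. MAS5 appears, without a version, among the tools in the submitters' processing notes, and the labels give no background correction, scaling or filter. Per the labels' protocols, 150 ng of TRIzol-extracted RNA was labelled with the WT Plus kit. No scan batch is known here, and 0 columns of samples were left unused. The array number limits the precision: the median half-width of the 95% intervals was 0.33 in log2 units.

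Intensities were transformed as log2(intensity + 1) and quantile-normalised over all probesets, since array medians differed by up to 0.12. A fold on this scale understates changes of dim genes. The probe table listed 25335 probesets, 23521 with 1 symbol and 1814 with several. Each of 22180 genes was read by its brightest single-symbol probeset, and the lowest 25% by mean level (5545 genes) were left out. Groups were compared by limma 3.58.1 (lmFit, eBayes, two-sided) in R 4.3.3 over 16635 genes with Benjamini-Hochberg adjustment at 0.05, and the script was tested on simulated data. Plots used matplotlib 3.10.9 in Python 3.11.15.

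Pairing by replicate number was checked: same-numbered arrays' deviations from their group means had correlations of 0.314, 0.367 and 0.752 for number 1, 2 and 3, each over the limit of 0.1. The limit was passed, but it cannot show pairing of numbers 1 and 2, because the arrays numbered 3 stand apart in both groups. The crossed pairs had higher values, 0.401 for control 1 with knockout 2 and 0.373 for control 2 with knockout 1. The values reported come from the fit without this pairing, and the blocked fit is an alternative. No label states the pairing. Named genes are all members, Hsf1, Hsf2 and Elavl1, up to 4 genes of each other list by smallest p, and the 5 genes most like Hspa1b and Hspa8; Xist, Uty and Kdm5d were named after their values were seen. The members and lists were chosen with earlier results of these data known. Lists are described by counts and medians without a test. Alternatives covered normalisation, pseudocount, dim-gene filter, probeset rule, each array left out, both arrays numbered 3 left out, array weights and 2 blocks.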

Additional observations from a re-analysis of the deposited data

How the results depend on the processing

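Under all 16 alternatives 0 genes and 0 members of the heat shock set were called. The number of members above 0 was 8 of 9 as reported. When 1 array was left out it ran from 5 to 8, with 5 reached without knockout 1, beside 55.2% of all genes. It was 9 without normalisation and after median centring, and 6 with the mean over probesets. Hspa1b, Bag3, Hspb8 and Hsph1 kept a positive sign in all 16 alternatives, with Hspa1b between 0.40 and 0.93 and its adjusted p from 0.929 upward. Leaving out 1 array gave values from 0.40 to 0.84 for Hspa1b, from -0.042 (without knockout 1) to 0.53 for Hspa1a and from -0.005 (without knockout 1) to 0.26 for Dnajb1. It gave values from -0.026 (without knockout 3) to 0.11 for Hspa8, also below 0 without control 1 (-0.021), and from -0.14 (without knockout 1) to 0.25 for Hspb1, also below 0 without control 2 (-0.027). For Hsp90aa1 it gave values from -0.034 to 0.00099 (without control 2). The mean over probesets turned the sign of Hspa8 (-0.023) and Hspb1 (-0.063). Hsp90aa1 turned positive without normalisation (0.016) and after median centring (0.052). The cause was not tested.

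With the replicate number as a block Hspa1b had an unadjusted p of 0.0604 and an adjusted p of 0.984 in limma, and the block changed no call. The number of genes with an unadjusted p under 0.05 was 282 as reported, 806 with that block, 769 with number 3 as a block, 755 with array weights, 465 with no filter on dim genes, 88 with the lowest 50% left out, 851 without both arrays numbered 3, and 165 (without knockout 2) to 576 (without control 3) when 1 array was left out. Of these genes 55% were higher in knockout, against 42.1% without normalisation and 68.6% after median centring. Hspb1 was too dim to be tested with the lowest 50% left out.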
